A study of Rattus norvegicus with 5 samples.

Results

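The genes described here are those of the cytoplasmic ribosomal proteins, the protein parts of the machine that translates mRNA. They were chosen by symbol alone (Rps, Rpl and Rplp followed by a number, paralogs included, and Rpsa), and rows that share a symbol were summed. The rule found 85 members among 30017 symbols, of which 34 were small-subunit (Rps, Rpsa) and 51 large-subunit (Rpl, Rplp) genes. In cells assigned to a class, 2 members (Rpl38 and Rpl39) had no UMI, 15 stayed under 100 CPM in every class and library, and 68 reached at least 100. A UMI, or unique molecular identifier, counts a captured mRNA molecule once, and levels are given in CPM, counts per 1000000 UMIs of the same cells.

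Skin of male Sprague-Dawley (SD) rats was measured by droplet-based single-cell RNA sequencing in 5 libraries. One held control skin, and the others held irradiated skin sampled 7, 14, 28 or 60 days after exposure. Per the study's methods, the rats were irradiated once on shaved skin with an electron beam, and the control was skin without radiation. No dose is in the labels, and the methods leave out the day 60 library, whose dose and experiment are therefore unknown. Each group was 1 library, so no test between groups was possible, the intervals below cover counting error only, and the effect of irradiation cannot be told apart from differences between animals, dissociations or library preparations.

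The libraries held 6012 to 12239 barcodes and 70073362 to 139566348 UMIs, and 4370 to 11304 barcodes passed the filters. Markers placed 76.1% (day 14) to 94.4% (day 60) of these in a class, and a class was used in a library that held at least 50 of its cells. Of the 10 classes used, each had more of its own markers than of any other class among its 10 leading genes. Cells were placed by these same markers, so this is no independent check of the classes. Neutrophils had 1 own marker among the 10 and T and NK cells 2. S100a8 and S100a9, listed for neutrophils, were among the leading genes of suprabasal keratinocytes. Fibroblasts numbered 3560 cells in control, 7440 on day 7, 85 on day 14, 636 on day 28 and 621 on day 60, so the day 14 fibroblast values rest on few cells. Libraries shared 11 to 41 barcodes in pairs, at most 0.382% of the smaller library. In kept cells the mitochondrial share of UMIs had medians over classes of 4.07% in control, 4.02% on day 7 and 3.76% on day 14. It was 7.17% on day 28 and 6.41% on day 60. These medians come after unequal removal. Over the mitochondrial limit were 6.4% of barcodes in control, 7.44% on day 7 and 25.5% on day 14. The shares were 14.1% on day 28 and 11.3% on day 60. The part of mitochondrial UMIs in the results below was not tested beyond the scaling without them and the other mitochondrial limits.

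Ribosomal protein mRNAs are made in roughly matched amounts, and in most of them transcription starts at a C followed by a run of pyrimidines (C and T in the gene), the 5′ terminal oligopyrimidine tract. That tract lets the kinase complex mTORC1, through the binding protein LARP1, switch their translation on and off together. Several ribosomal proteins, Rpl5 and Rpl11 above all, also bind Mdm2 when ribosome assembly is disturbed, which releases the tumour suppressor p53. The paralog Rps27l is itself a known p53 target, and in skin the dividing basal keratinocytes are known for high ribosome production.

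The sequence around the annotated start was read for Rps27l beside its parent Rps27. Windows of 30 bases, 15 before and 15 from the start base on, were read from RefSeq's promoter table (build GRCr8, not the build of the counts), in which 65 of the 85 members were found. The 6 shown are the pair Rps27 and Rps27l, the paralog Rpl22l1, and 3 members described below, with the longest run of C and T near the start in capitals where it reached 8 bases.
Rps27 (chr2:177964592-177964621, minus strand): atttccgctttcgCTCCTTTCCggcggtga
Rps27l (chr8:76443643-76443672, plus strand): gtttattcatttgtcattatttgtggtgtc
Rpl22l1 (chr2:113683181-113683210, plus strand): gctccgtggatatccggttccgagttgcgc
Rpl19 (chr10:83519049-83519078, plus strand): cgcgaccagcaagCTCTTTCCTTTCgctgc
Rpl37 (chr2:55942930-55942959, plus strand): tggtaggcgtaCTTTCTCTTCCggtctctt
Rps10 (chr20:5700730-5700759, minus strand): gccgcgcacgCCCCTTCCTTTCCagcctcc

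Rps27 has a run of 9 pyrimidines that begins 2 bases before the annotated start, whereas the longest run of Rps27l near its start was 3 bases and that of Rpl22l1 was 4. A run of at least 8 pyrimidines on the gene's own strand, overlapping the 5 bases on either side of the start, was present in 37 of 65 members (56.9%) and in 9.01% of the 27457 promoters in the table. The 3 further members shown all have such a run, but Rps6 (longest run 2 bases), Rpl26 (3) and Rpl11 (3), also described below, do not. A short run is thus not particular to Rps27l. The match depends on the annotated start base and describes letters only.

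The summed level of the members set the cell classes apart. In control skin T and NK cells had 326691 CPM (95% interval 324783 to 328608, 71 cells), basal keratinocytes 272287 (272137 to 272437) and suprabasal keratinocytes 267259 (266976 to 267542). Mononuclear phagocytes followed at 155422, endothelial cells at 141156, fibroblasts at 129693, Schwann cells at 126592 and mural cells at 120220. Neutrophils had 39864 (38746 to 41006), the lowest of the 9 classes measured in control. Basal keratinocytes were thus 1.07 higher than fibroblasts on the log2 scale. T and NK cells, basal keratinocytes and suprabasal keratinocytes held the 3 highest levels in every library.

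**Figure D1:**
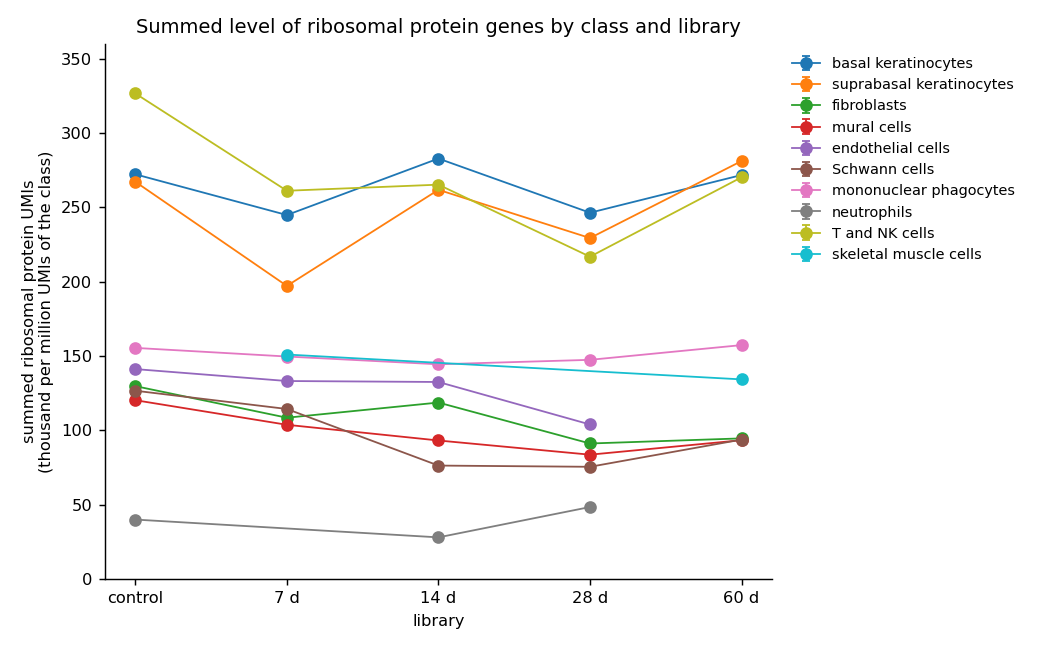
Summed ribosomal protein UMIs (y axis, in units of 1000 CPM) in each library (x axis) for the 10 cell classes; points are single libraries and bars, mostly hidden by the points, are 95% counting intervals. Keratinocytes and T and NK cells lie at 197149 CPM or above in every library, all other classes at 157305 or below.

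After irradiation the summed level was mostly below that of control skin. It was lower in 8 of 8 classes on day 7, 8 of 9 on day 14, 8 of 9 on day 28 and 5 of 7 on day 60, counting a class where the 95% interval of the ratio left out 1. The exceptions were basal keratinocytes on day 14, neutrophils on day 28 (log2 ratio 0.28), and suprabasal keratinocytes and mononuclear phagocytes on day 60 (0.073 and 0.017). Mononuclear phagocytes moved least, with 155422, 149621, 144386, 147385 and 157305 CPM from control to day 60. Schwann cells had 126592 in control, 114300 on day 7, 76212 on day 14, 75389 on day 28 and 93702 on day 60, which put the day 14 and day 28 libraries 0.73 and 0.75 lower on the log2 scale (log2 ratios of -0.73 and -0.75). T and NK cells had 326691, 261199, 265305, 216814 and 270274. Their summed markers of suprabasal keratinocytes were 378 CPM in control and 2214 on day 28. Those of fibroblasts were 1577 in control, 2647 on day 7, 17.1 on day 14, 426 on day 28 and 247 on day 60. Median depth was 4571 UMIs per T or NK cell in control and 1882 on day 28, and 4699 and 2371 per Schwann cell. The part of these differences in the levels was not tested.

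Fibroblasts, the collagen-producing cells of the dermis, had 129693 CPM in control, 108426 on day 7, 118634 on day 14, 91072 on day 28 and 94515 on day 60. All 4 irradiated libraries were below control, with log2 ratios of -0.26 (95% interval -0.26 to -0.26), -0.13 (-0.14 to -0.12), -0.51 (-0.52 to -0.50) and -0.46 (-0.46 to -0.45). The median log2 ratio over all genes measured in fibroblasts was 0.12, 0.047, 0.15 and 0.18 at these times, so that relative to it the ratios were -0.38, -0.18, -0.66 and -0.64. Median depth fell from 11393 UMIs per fibroblast in control to 4236 on day 28. Among cells of 4000 to 8000 UMIs the level was 123331 in control, 101632 on day 7, 106331 on day 14 (22 cells), 91138 on day 28 and 87789 on day 60, again lower in all 4. The size of the difference moved with depth. Cells of 2000 to 4000 UMIs had 129063 in control, 74505 on day 7, 90624 on day 28 and 57790 on day 60. Those of 8000 to 16000 UMIs had 126705 in control, 108416 on day 7, 123810 on day 14 (32 cells), 85835 on day 28 and 91636 on day 60. Summed markers of suprabasal keratinocytes in all gated fibroblasts ranged from 244 CPM on day 7 to 1346 on day 28, against 448 in control, and none of the fibroblast markers found was at 0 in any library.

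Basal keratinocytes, the dividing layer of the epidermis, had 272287 CPM in control, 244854 on day 7, 282885 on day 14, 246406 on day 28 and 271793 on day 60. Their log2 ratios were -0.15, 0.055, -0.14 and -0.0026, and the median over all genes was 0.070, -0.31, -0.11 and -0.13, which left -0.22, 0.36, -0.032 and 0.13 relative to it. The direction on day 60 therefore turned with the scaling. Summed fibroblast markers in basal keratinocytes were 1107 CPM in control, 2768 on day 7, 11.7 on day 14, 221 on day 28 and 270 on day 60, and their part in these levels was not tested. On day 14 the direction turned with depth, since basal keratinocytes of 4000 to 8000 UMIs had 244855 in control and 204585 on day 14 (60 cells), while those of 8000 to 16000 UMIs had 283853 and 297154.

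Suprabasal keratinocytes, which have left the basal layer to differentiate, had 267259 CPM in control, 197149 on day 7 (140 cells), 261850 on day 14, 229377 on day 28 and 281209 on day 60. The log2 ratios were -0.44, -0.029, -0.22 and 0.073 against medians over all genes of 0.19, -0.23, -0.15 and -0.18. Relative to these medians the ratios were -0.63, 0.20, -0.068 and 0.25, so the direction on day 14 turned with the scaling. The day 7 library was the lowest for these cells under both scalings. Median depth was 15801 UMIs per cell in control and 29671 on day 14. Among cells of 8000 to 16000 UMIs the level was 273529 in control, 156827 on day 7 (29 cells), 242392 on day 14 (97 cells), 241119 on day 28 and 297564 on day 60. Markers moved with the libraries in this class. The summed suprabasal markers were 44440 CPM in control, 26218 on day 7, 23877 on day 14, 64059 on day 28 and 60439 on day 60, and the basal markers 2384, 4372, 7421, 7421 and 5855. The markers listed for neutrophils, S100a8 and S100a9 among them, were 59.6, 732, 21316, 3950 and 1413 CPM. The part of these shifts in the level of the members was not tested.

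Single members spread more widely after day 7. The middle 50% of members in fibroblasts had log2 ratios from -0.33 to -0.15 on day 7 and from -0.74 to -0.089 on day 28, and in basal keratinocytes from -0.26 to -0.032 and from -0.37 to 0.20. Of 76 members measured in fibroblasts on day 7, 67 were below control, their median log2 ratio was -0.25, 3 were past 1.5-fold higher (16.6% of all genes measured) and 0 were past 1.5-fold lower (6.27% of all genes). On day 14 6 of 75 were past 1.5-fold higher (25.4% of all genes) and 12 lower (20.3%), on day 28 3 higher (24.8%) and 22 lower (13.9%), and on day 60 2 higher (25.9%) and 21 lower (15.3%). In fibroblasts on days 28 and 60 the share of members past the lower limit was above that of all genes, and the share past the upper limit was below it at all 4 times.

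**Figure D2:**
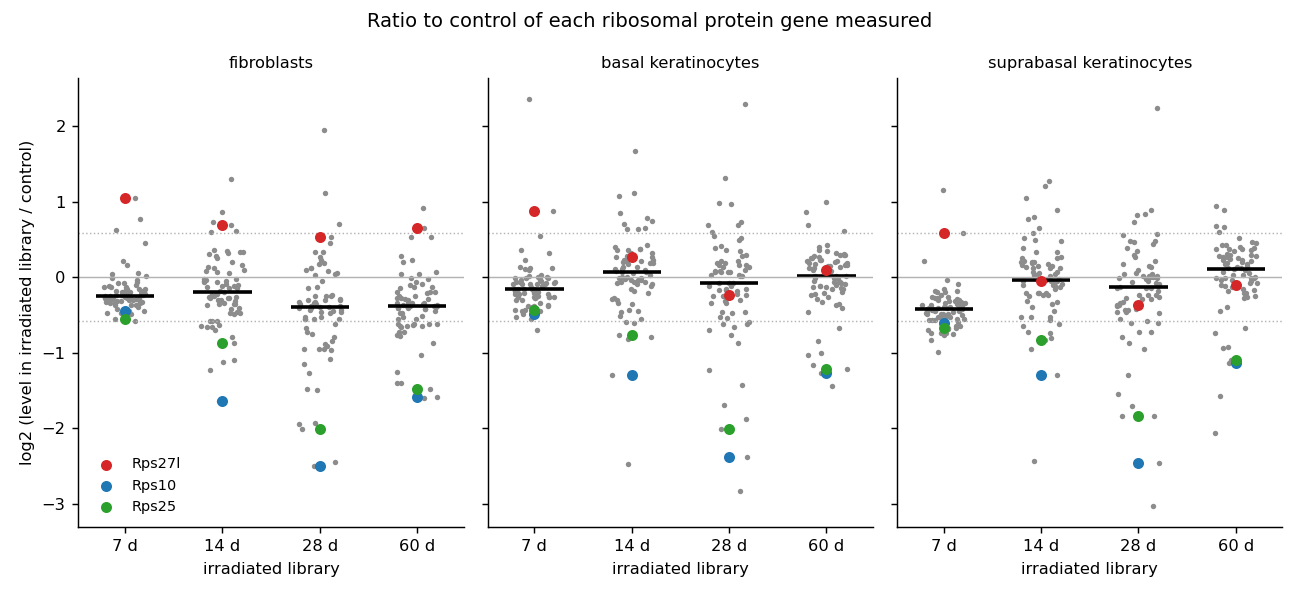
Log2 ratio to control (y axis) of every member measured in fibroblasts, basal and suprabasal keratinocytes at each time (x axis); black bars are medians over members, dotted lines mark 1.5-fold and coloured points are Rps27l, Rps10 and Rps25. Rps27l lies above the median in all 4 fibroblast libraries, and on day 28 Rps10 and Rps25 lie at -2.51 and -2.01 there.

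In basal keratinocytes 2 of 76 members were past 1.5-fold higher (16.2% of all genes) and 1 lower (12.4%) on day 7. On day 14 10 were higher (14.7% of all genes) and 7 lower (39.1%), on day 28 8 higher (11% of all genes) and 14 lower (23.1%), and on day 60 4 of 77 higher (10.5%) and 8 lower (25.7%). Relative to the median of all genes, the split on day 7 became 2 higher and 3 lower, that on day 14 21 higher and 2 lower, and that on day 28 11 higher and 10 lower. In suprabasal keratinocytes 2 of 74 were past the fold higher (23.3% of all genes) and 15 lower (11.1%) on day 7, and relative to the median of all genes 1 and 45. The counts were 7 higher (18% of all genes) and 9 lower (35.9%) on day 14, 5 higher (14.4%) and 14 lower (27.4%) on day 28, and 5 higher (10.9%) and 8 lower (30.5%) on day 60. Relative to the median of all genes they became 12 and 4, 11 and 10, and 10 and 6, so in keratinocytes after day 7 the balance of directions depends on the scaling. In fibroblasts the same scaling gave 2 higher and 6 lower on day 7, 4 and 14 on day 14, 2 and 33 on day 28, and 1 and 33 on day 60. The share of all genes past the fold under this scaling is not given here. The centred counts in this paragraph therefore have no matching background, and the shares above apply only to the uncentred counts.

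Rps27l, the p53-responsive paralog of the small-subunit protein Rps27, had the highest ratio of all members in fibroblasts on day 7, and only Rps4y2, a gene of few UMIs, was above it in keratinocytes. Basal keratinocytes had 381 CPM of Rps27l in control, 704 on day 7, 458 on day 14, 323 on day 28 and 409 on day 60. Fibroblasts had 274, 569, 444, 397 and 430, and suprabasal keratinocytes 275, 414, 265, 212 and 256. The day 7 library was the highest of the 5 in all 3 classes, and in fibroblasts all 4 irradiated libraries lay above control. The log2 ratios on day 7 were 1.05 (95% interval 1.02 to 1.08) in fibroblasts, 0.88 (0.85 to 0.91) in basal keratinocytes and 0.59 (0.50 to 0.68) in suprabasal keratinocytes. In fibroblasts they were 0.70 (0.51 to 0.87) on day 14, 0.53 (0.45 to 0.61) on day 28 and 0.65 (0.58 to 0.72) on day 60. In keratinocytes the level of Rps27l was back within 1.5-fold of control from day 14 on.

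Other classes differed in when Rps27l was highest. Endothelial cells had 222 CPM of Rps27l in control, 832 on day 7, 794 on day 14 and 599 on day 28. Schwann cells, which ensheath nerve fibres, had 252, 610, 383, 414 and 730, and mural cells, the contractile cells of vessel walls, 172, 368, 296, 327 and 266. Mononuclear phagocytes had 384, 455, 943, 365 and 340, so their highest library was day 14. T and NK cells had 204, 258, 207, 145 and 194, with a day 7 interval of the log2 ratio (-0.11 to 0.80) that included no change. Over the 8 classes measured on day 7, the interval of Rps27l lay above control in 7 and below it in 0, and 6 were past 1.5-fold. On day 60 it lay above control in 4 of 7 classes and below in 1.

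Rps27, the parent gene, did not share this pattern. Basal keratinocytes had 4629 CPM of Rps27 in control, 3971 on day 7, 6140 on day 14, 4085 on day 28 and 3693 on day 60, and fibroblasts had 2127, 1948, 2711, 1638 and 1389. Its day 14 library was the highest in 6 of the 7 classes with all 5 libraries. On day 7 the interval of Rps27 lay below control in 6 of 8 classes and above it in 0, with a median log2 ratio of -0.20. The 2 mRNAs code for closely related proteins, and how the authors' counting divided reads that match both is not given in the sources used here.

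**Figure D3:**
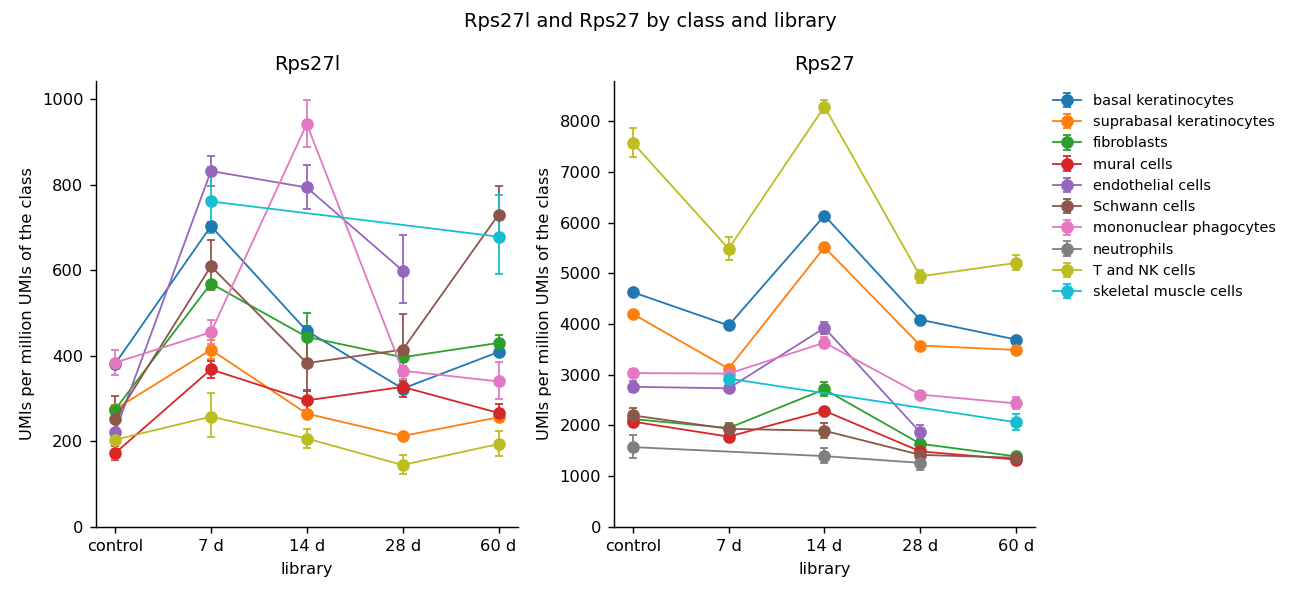
Level in CPM (y axis) of Rps27l (left) and Rps27 (right) in each library (x axis), by cell class, with 95% counting intervals; classes with under 50 UMIs in every library are left out. Rps27l is highest on day 7 in fibroblasts (569) and basal keratinocytes (704), whereas Rps27 is highest on day 14 in basal keratinocytes (6140).

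Genes of p53 feedback, listed beside the members, were read in the same cells. Mdm2, the p53 inhibitor, had a log2 ratio to control in fibroblasts of 2.71 on day 7, 1.20 on day 14, 1.81 on day 28 and 0.60 on day 60, and Cdkn1a, the cell cycle inhibitor p21, had 2.49, 1.72, 1.74 and 0.65. Of the 4 genes of this list measured in fibroblasts, 3 were past 1.5-fold higher on day 7 (16.6% of all genes) and 2 on day 14 (25.4%). On day 28 3 were past it higher (24.8%) and on day 60 3 (25.9%). None was past 1.5-fold lower at any time (6.27%, 20.3%, 13.9% and 15.3% of all genes from day 7 to 60). In basal keratinocytes Mdm2 had 1.86 and Cdkn1a 1.10 on day 7, then -0.44 and -1.24 on day 14 and -0.92 and -1.37 on day 60. Rps27l, Mdm2 and Cdkn1a were therefore all above control on day 7 in both classes, but in basal keratinocytes they parted on days 14 and 60. On day 14 Rps27l had 458 CPM there against 381 in control, while Mdm2 and Cdkn1a were below control. On day 28 all 4 genes of the list were below control there, 0 past 1.5-fold, and Rps27l had 323 CPM. On day 60 Rps27l was at 0.10 there. In mononuclear phagocytes Rps27l was highest on day 14 (943 CPM). Of the 3 list genes measured in them, 2 were past 1.5-fold higher on day 7 (689 of 4033 among all genes measured). On day 14 it was 1 of 3 (803 of 3582 among all genes), too few genes to read against that share.

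Of the 7 members listed as binding Mdm2 (Rpl5, Rpl11, Rpl23, Rpl26, Rps7, Rps27 and Rps27l), 6 were below control on day 7 in each of fibroblasts, basal and suprabasal keratinocytes, and Rps27l was the one above. Among all members 67 of 76, 62 of 76 and 71 of 74 were below control in these classes, so the count is near that of the members as a whole. Rpl5 had log2 ratios in fibroblasts of -0.26, -0.22, 0.12 and -0.061 from day 7 to 60, and Rpl11 had -0.28, -0.27, -0.62 and -0.41. In basal keratinocytes Rpl5 was at -0.37, -0.34, 0.39 and 0.34, and Rpl11 at -0.20, 0.067, -0.25 and 0.090. These 2 proteins enter the ribosome together as one particle, and their mRNAs stood on opposite sides of control in basal keratinocytes on days 14 and 28.

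Proteins of the stalk that recruits elongation factors were represented by Rplp0 and Rplp1. Rplp0 had log2 ratios in fibroblasts of -0.33, -0.13, -0.45 and -0.56 from day 7 to 60, and Rplp1 had -0.37, -0.22, -0.88 and -0.65. In basal keratinocytes Rplp0 lay at -0.038, 0.24, 0.19 and 0.12, and Rplp1 at -0.042, -0.033, -0.47 and -0.21. Rpsa, the small-subunit protein also known as the laminin receptor, had -0.25, 0.16, -0.39 and -0.41 in fibroblasts and -0.16, 0.36, 0.19 and 0.25 in basal keratinocytes. Rplp2, the remaining stalk gene, is listed with 0.558 CPM in control fibroblasts, but another row, which RefSeq names Rplp2l2, held 133 there.

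Rps6, the small-subunit protein that is phosphorylated downstream of mTORC1, was among the 3 highest ratios on day 60 in fibroblasts and both keratinocyte classes. Basal keratinocytes had 270 CPM of Rps6 in control, 198 on day 7, 364 on day 14, 532 on day 28 and 491 on day 60, and fibroblasts had 115, 100, 148, 187 and 166. The day 7 library was the lowest in all 7 classes with 5 libraries, and the highest was day 28 in 4 of them and day 60 in 3. Its log2 ratio in suprabasal keratinocytes was -0.75 on day 7, 0.83 on day 28 and 0.90 on day 60.

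Rpl12 and Rpl26, both of the large subunit, were among the 3 lowest ratios in both keratinocyte classes on day 7. In basal keratinocytes Rpl12 had 2995 CPM in control and 2045 on day 7 (log2 ratio -0.55), and Rpl26 had 4053 and 2813 (-0.53). In suprabasal keratinocytes the log2 ratios were -0.99 for Rpl12 and -0.83 for Rpl26. In fibroblasts the lowest on day 7 were Rpl32 (-0.58), Rps25 (-0.55) and Rps24 (-0.49). Rpl19, whose start window is shown above, was among the 3 highest on day 7 in both keratinocyte classes, at 7180 in control and 10449 on day 7 in basal keratinocytes (0.54), against 3817 and 4276 in fibroblasts.

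Rps28, a small-subunit gene, was among the 3 highest ratios on day 14 in fibroblasts and both keratinocyte classes. It was not alone, and by the rule given below 0 of 70 members left the group on day 14. In basal keratinocytes 42 of 76 members were above control on day 14 and 34 below. Rpl36 had 2745 CPM there in control and 4963 on day 14, and Rpl41 had 8662 and 14467. Basal keratinocytes had 2427 CPM of Rps28 in control, 2354 on day 7, 5261 on day 14, 3417 on day 28 and 2333 on day 60. The log2 ratio on day 14 was 1.12 (95% interval 1.10 to 1.13) in basal keratinocytes, 1.06 (1.04 to 1.07) in suprabasal keratinocytes and 0.86 (0.79 to 0.93) in fibroblasts. Its day 14 library was the highest in 6 of 7 classes and its day 60 library the lowest in 6.

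Rps4y2, a paralog of the small-subunit gene Rps4x with few UMIs, differed between classes. Basal keratinocytes had 3.21 CPM of Rps4y2 in control, 16.5 on day 7, 4.12 on day 14, 4.70 on day 28 and 1.60 on day 60, so only the day 7 library was far above the others. Fibroblasts had 29.3, 40.2, 13.4, 37.0 and 55.0. The log2 ratio on day 7 was 2.37 (95% interval 2.09 to 2.65) in basal keratinocytes, where 420 UMIs were counted on day 7, and 0.46 in fibroblasts. On day 60 it was 0.91 (0.72 to 1.10) in fibroblasts, -1.01 in basal and -2.07 in suprabasal keratinocytes.

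A member was said to leave the group in a library when its level there, over the median of the other 4 libraries, differed from that of the median member by at least 1 on the log2 scale, in the same direction, in more than 50% of the classes in which it was measured. At least 3 of the 7 classes with all 5 libraries were needed. By this rule 8 of 75 members left in at least 1 library, in 13 pairs of member and library. There were 3 of 75 members in control (6.3% of all genes measured), 2 of 71 on day 7 (4.28%), 0 of 70 on day 14 (7.11%), 6 of 72 on day 28 (4.49%) and 2 of 71 on day 60 (3.87%). Read against these shares, only the day 28 library had a member share (8.33%) above that of all genes.

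In control Rps10 and Rps19l2 were higher and Rpl9 lower, on day 7 Rpl30 and Rps10 were higher, and on day 60 Rpl37 and Rps4y2 were lower. The 6 that left on day 28 were Rps10, Rpl30, Rpl32, Rps25 and Rpl37, which were lower, and Rpl9, which was higher. Rps10, a small-subunit gene, had 682 CPM in basal keratinocytes in control, 488 on day 7, 277 on day 14, 131 on day 28 and 283 on day 60. Fibroblasts had 262, 192, 83.8, 46.1 and 87.0 CPM of Rps10, and T and NK cells 658, 565, 259, 117 and 249. In all 7 classes control was the highest library and day 28 the lowest, and the deviation on day 28 ran from -1.84 to -1.41 over 6 classes. Rpl30, of the large subunit, had 1035, 1108, 599, 280 and 462 CPM in basal keratinocytes and a deviation on day 28 of -1.88 to -1.25 over 7 classes.

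Copies of these genes change that picture. The table lists 64 further rows that RefSeq names as pseudogenes or copies of a ribosomal protein gene, such as LOC100362027 (Rpl30l2), and 4 members are themselves such copies (Rps10l1 among them). Reads from near-identical copies could be divided between rows by the authors' alignment, so single values of such members are uncertain. When each member was summed with its copies, 4 pairs of family and library left the group in place of 13. On day 28 they were 2 of 78 families (2.56%), so with copies summed the share on day 28 no longer lay above the 4.49% of all genes. Rps10 with Rps10l1 had 3293 CPM in basal keratinocytes in control, 2491 on day 7, 3653 on day 14, 2931 on day 28 and 3802 on day 60, and its median deviation on day 28 went from -1.49 to -0.13. Rpl37 went from -1.02 to -0.23 on day 28 and from -1.04 to -0.34 on day 60, Rpl30 from -1.40 to -0.71 on day 28, and Rpl9 from 1.82 to 0.021.

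No row was matched as a copy of Rps25 or Rpl32. Both still left the group on day 28 when the other families were summed, with medians of -1.06 for Rps25 and -1.10 for Rpl32. Rps25 had 908 CPM in basal keratinocytes in control, 675 on day 7, 534 on day 14, 225 on day 28 and 390 on day 60. Fibroblasts had 376, 256, 206, 93.0 and 135 CPM of Rps25, and T and NK cells 1056, 786, 570, 256 and 475. Rpl32 had 3590, 2844, 2642, 1108 and 1996 in basal keratinocytes, 1562, 1043, 1004, 405 and 656 in fibroblasts, and 4679, 3121, 2506, 977 and 1994 in T and NK cells. Both genes were highest in control and lowest on day 28 in all 7 classes. The summed Rplp2 family left on day 60 (median -1.02), with 273 CPM in control and 132 on day 60 in basal keratinocytes, and the remaining pair was Rps4y2 on day 60.

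**Figure D4:**
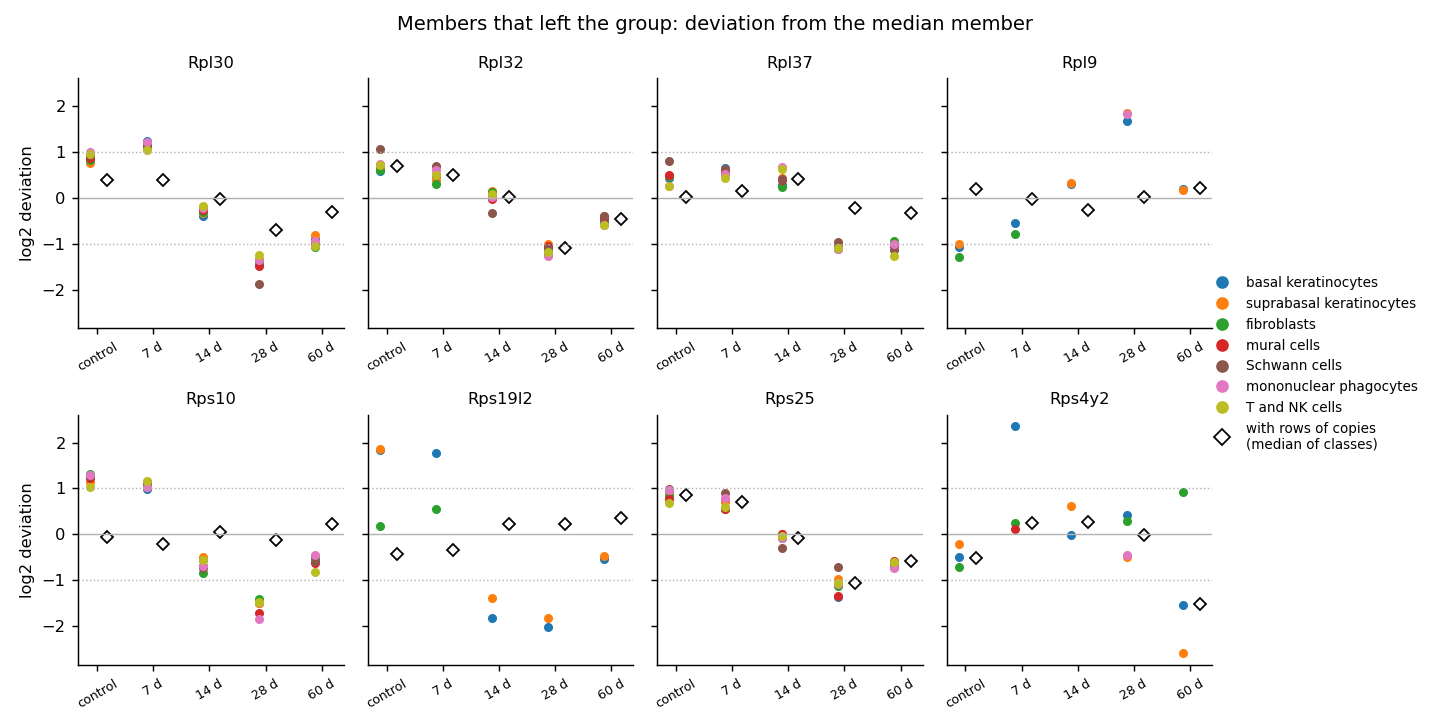
Log2 deviation from the median member (y axis) in each library (x axis) for the 8 members that left the group; filled points are cell classes, open diamonds are the median over classes after rows of copies were added and dotted lines mark a deviation of 1. In Rps10 and Rpl9 the diamonds lie near 0 on day 28 (-0.13 and 0.021), in Rps25 and Rpl32 they stay at -1.06 and -1.10.

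Several members were near 0 while a row named as their copy was not. Rpl9 had 5.04 CPM in control basal keratinocytes, and the row that RefSeq names Rpl9-ps30 had 5809. Rpl38 and Rpl39 had no UMI, and the rows named Rpl38-ps9 and Rpl39-ps12 had 1794 and 745. The row named Rps29-ps17 had 1997, 1687, 3487, 2518 and 2180 CPM in basal keratinocytes from control to day 60, against 3.14 for Rps29 in control. Ratios of Rpl9, Rps29, Rps19l2, Rps18l1, Rplp2 and Rpl36a, which were among the 3 highest or lowest in several comparisons, rest on members of low level. Rpl9 on day 28, for instance, had a log2 ratio of 2.30 in basal keratinocytes, 2.25 in suprabasal keratinocytes and 1.96 in fibroblasts, with 966 UMIs in the first and 37 in the last. Rps19l2 in fibroblasts was counted 183 times in control and 0 times on day 28.

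The 2 subunits did not keep a fixed ratio between libraries. Small-subunit UMIs were 0.809 of large-subunit UMIs in control basal keratinocytes, 0.771 on day 7, 0.778 on day 14, 0.835 on day 28 and 0.838 on day 60, and in fibroblasts 0.776, 0.749, 0.737, 0.797 and 0.797. The ratio was below control in 7 of 7 classes on day 7 and in 7 of 7 on day 14. It was above control in 4 of 7 classes on day 28. On day 60 it was above control in 6 of 7, counting any difference, but T and NK cells were level with control to 3 decimals (0.821 in both). Without the 8 members that left the group the counts were 7, 7, 4 and 5, and with rows of copies added they were also 7, 7, 4 and 5. The lower ratio on days 7 and 14 was found in each of the 7 classes, whereas on day 28 it was higher in basal keratinocytes and lower in T and NK cells (0.807 against 0.821 in control). Library preparation and time cannot be told apart here.

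**Figure D5:**
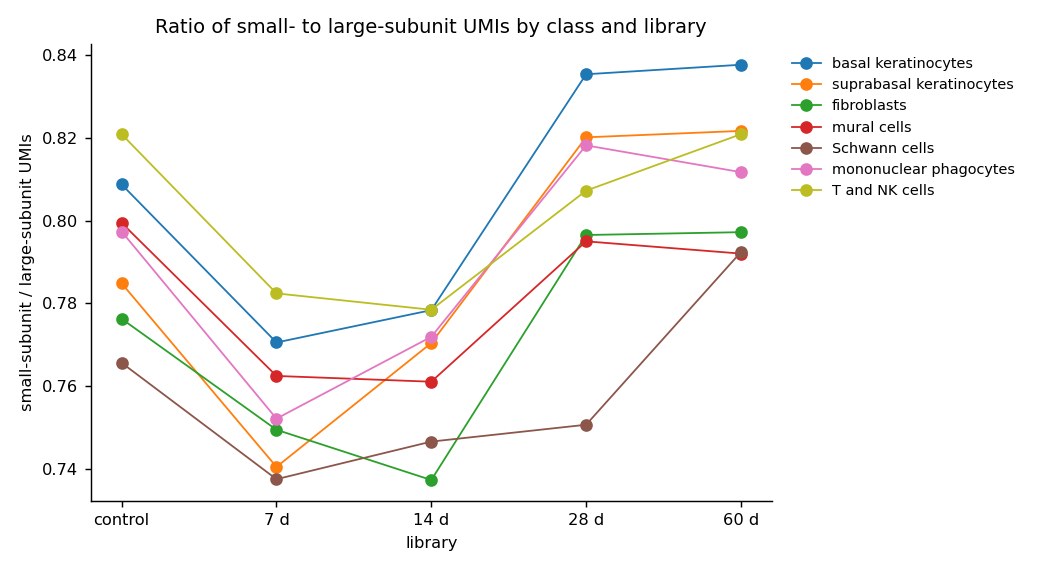
Ratio of small-subunit to large-subunit UMIs (y axis, which does not start at 0) in each library (x axis) for the 7 classes with at least 50 cells in all 5 libraries. All 7 lines are below their control value on days 7 and 14.

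Genes that build ribosomes were read from a list beside the members. Of 36 ribosome biogenesis genes measured in fibroblasts, 12 were past 1.5-fold lower and 0 higher on day 7, 6 lower and 3 higher on day 14, 13 lower and 1 higher on day 28, and 18 lower and 3 higher on day 60. Of all genes, 6.27%, 20.3%, 13.9% and 15.3% were past the lower limit at these times, and 16.6%, 25.4%, 24.8% and 25.9% past the upper limit. The list's medians were -0.39, -0.052, -0.38 and -0.55 beside medians over all genes of 0.12, 0.047, 0.15 and 0.18. In basal keratinocytes 5 of 36 were past the fold higher (16.2% of all genes) and 0 lower (12.4%) on day 7. On day 14 10 were higher (14.7%) and 0 lower (39.1%), and the medians on days 7 and 14 were 0.32 and 0.31. On day 28 there 1 was higher (11% of all genes) and 3 lower (23.1%), and on day 60 1 was higher (10.5%) and 5 lower (25.7%). The medians were -0.0089 and -0.064. Suprabasal keratinocytes had 0 higher (23.3% of all genes) and 3 lower (11.1%) on day 7, and 4 higher (18%) and 2 lower (35.9%) on day 14. On day 28 they had 2 higher (14.4%) and 5 lower (27.4%), and on day 60 2 higher (10.9%) and 10 lower (30.5%). The medians were -0.075, -0.16, 0.053 and -0.15, and in each case the list's share was below that of all genes. Npm1, which chaperones ribosome assembly in the nucleolus, had a log2 ratio of -0.57 in fibroblasts and 0.38 in basal keratinocytes on day 7. On day 14 Npm1 stood at 0.94 and Ncl, the nucleolar protein nucleolin, at 0.65 in basal keratinocytes. Fbl, the methyltransferase of ribosomal RNA, had -0.85 on day 7 and -1.73 on day 28 in fibroblasts and -1.09 on day 28 in basal keratinocytes.

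Ribosomal proteins of mitochondria, which belong to a separate ribosome, were read beside the cytoplasmic members. In basal keratinocytes 8 of 75 were past 1.5-fold higher and 0 lower on day 7 (16.2% of all genes higher, 12.4% lower), and 40 and 1 on day 14 (14.7%, 39.1%). On day 28 5 and 4 were past it (11%, 23.1%), and on day 60 23 and 3 (10.5%, 25.7%). Their medians there were 0.28, 0.62, 0.21 and 0.45, beside 0.070, -0.31, -0.11 and -0.13 for all genes. In fibroblasts 5 of 74 were higher and 1 lower on day 7 (16.6% of all genes higher, 6.27% lower), and 6 and 10 on day 14 (25.4%, 20.3%). On day 28 14 and 4 were past it (24.8%, 13.9%), and on day 60 29 and 2 (25.9%, 15.3%). The medians were 0.074, -0.027, 0.15 and 0.46. Of the 21 other translation genes with a pyrimidine tract, 2 were past 1.5-fold lower (6.27% of all genes) and 0 higher (16.6%) in fibroblasts on day 7. On day 60 6 were lower (15.3%) and 0 higher (25.9%), and the medians were -0.20 and -0.27. Genes of RNA polymerase I, which transcribes ribosomal RNA, had medians of -0.26 in fibroblasts and 0.37 in basal keratinocytes on day 7 (10 genes each). Myc, a transcription factor that drives ribosome production, had a log2 ratio of -1.37 in basal keratinocytes on day 7 and -2.27 on day 14, and 0.66 in fibroblasts on day 60. In the list of mTORC1 and Myc genes as a whole, 3 of 16 were past the fold higher (16.2% of all genes) and 3 lower (12.4%) in basal keratinocytes on day 7.

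Proliferation and stress genes were read beside the members. Of 14 proliferation genes measured in fibroblasts, 10 were past 1.5-fold lower and 1 higher on day 7 (median -1.30), 1 lower and 9 higher on day 14 (median 0.94), 0 lower and 8 higher on day 28 (median 0.68), and 0 lower and 2 higher on day 60 (median -0.10). Of all genes in these cells 6.27%, 20.3%, 13.9% and 15.3% were past the lower limit from day 7 to 60. The shares past the upper limit were 16.6%, 25.4%, 24.8% and 25.9%. In suprabasal keratinocytes 14 of 15 were past the fold higher on day 14 (18% of all genes), with a median of 2.44, in the library in which the marker sums of this class differed from control as given above. Of 13 immediate early and heat shock genes, which also respond to tissue dissociation, 11 were past 1.5-fold higher in fibroblasts on day 7 (16.6% of all genes). The counts were 8 on day 14 (25.4%), 12 on day 28 (24.8%) and 10 on day 60 (25.9%). In basal keratinocytes 13 of 13 were past the fold lower on day 14 (39.1% of all genes), with a median of -1.78 beside -0.31 for all genes. The part of the proliferation and stress genes in the levels of the members was not tested.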

How the data were processed

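Single cells of rat skin were measured in 5 libraries made with droplet-based 3′ chemistry. Per the submitters' processing notes, the authors aligned reads to build Rnor_6.0 with Cell Ranger 5.0.0, and the notes also name STAR and Seurat 3.1.1. Deposited were unnormalized UMI counts per barcode and gene, and 32623 rows were summed to 30017 symbols. The members and lists were chosen with earlier results of these data known.

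Barcodes with at least 500 UMIs, 300 genes and at most 20% mitochondrial UMIs were kept. Log counts per 10000 were averaged over each class's markers after scaling, and a cell took the class with the highest score (at least 0.15, 0.05 above the next, 3 markers detected). No doublet caller was run, and cells with a mixed score stayed without a class. Of the markers listed, 94 of 100 were found. Counts were summed per class and library and scaled to CPM, counts per 1000000. Intervals are exact Poisson (levels) or exact conditional binomial (ratios) at 95%, and cover counting error only. With 1 library per group there was no test. Genes with at least 50 UMIs in 1 of the 2 libraries were compared, a count of 0 was set to 3 counts, and 1.5-fold was the limit. Named were members that left the group, the 3 highest and 3 lowest ratios in fibroblasts and both keratinocyte classes per library, members listed by role, and genes of the lists. Of the last 2 kinds only some are printed, chosen after their values were seen. Rpl22 was not analysed here under its own symbol. Copies were matched through RefSeq names (build GRCr8), with no coordinates carried over. The computation was tested on simulated counts with known changes. Alternatives were other scalings, filters, gates, limits and depths. Python 3.11.15, numpy 2.4.6, scipy 1.17.1 and pandas 2.3.3 were used. Some items that the rule for named genes would include are not reported here.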

Additional observations from a re-analysis of the deposited data

Results flagged for a closer look

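The summed level of the members stood on opposite sides of control in different classes of the same library. On day 14 the log2 ratio was -0.13 in fibroblasts, 0.055 in basal keratinocytes and -0.029 in suprabasal keratinocytes. On day 60 it was -0.46 in fibroblasts, -0.0026 in basal keratinocytes and 0.073 in suprabasal keratinocytes. Rps4y2 on day 60 was 0.91 on the log2 scale above control in fibroblasts and stood at -1.01 in basal and -2.07 in suprabasal keratinocytes. These results were singled out because the 1 irradiated library lay above control in one class and below it in the other, with counting intervals that left out no change. With 1 library per group the differences were not tested.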

How the results depend on the processing

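With mitochondrial UMIs left out of the total, the log2 ratio of the summed level to control on days 7, 14, 28 and 60 was -0.25, -0.12, -0.48 and -0.43 in fibroblasts, -0.15, 0.051, -0.11 and 0.031 in basal keratinocytes and -0.44, -0.034, -0.20 and 0.10 in suprabasal keratinocytes. Centred on the median of all genes it was -0.38, -0.18, -0.66 and -0.64, then -0.22, 0.36, -0.032 and 0.13, then -0.63, 0.20, -0.068 and 0.25, in the same order of classes and times. With at most 10% mitochondrial UMIs it was -0.25, -0.12, -0.51 and -0.45, then -0.13, 0.066, -0.14 and -0.0026, then -0.42, -0.030, -0.22 and 0.069. Without a mitochondrial filter it was -0.26, -0.13, -0.52 and -0.46, then -0.16, 0.0034, -0.15 and -0.0038, then -0.44, -0.037, -0.22 and 0.077. With the stricter gate it was -0.26, -0.086, -0.53 and -0.52, then -0.14, 0.070, -0.14 and -0.00037, then -0.41, -0.025, -0.22 and 0.077. With each cell given equal weight it was -0.35, -0.15, -0.53 and -0.51, then -0.25, 0.052, -0.18 and 0.069, then -0.56, -0.091, -0.22 and 0.12. Without the 6% of barcodes with most UMIs it was -0.28, -0.10, -0.51 and -0.48, then -0.22, 0.055, -0.18 and 0.0026, then -0.65, -0.027, -0.20 and 0.11. The next 3 settings were chosen after seeing the data. In cells of 4000 to 8000 UMIs it was -0.28, -0.44 and -0.49 in fibroblasts on days 7, 28 and 60 and -0.41, -0.26, -0.064 and 0.056 in basal keratinocytes, with too few cells elsewhere. Without the members that left the group it was -0.26, -0.12, -0.48 and -0.44, then -0.15, 0.069, -0.11 and 0.020, then -0.44, -0.017, -0.19 and 0.094. With the rows of copies added it was -0.27, -0.12, -0.51 and -0.46, then -0.16, 0.070, -0.16 and -0.015, then -0.45, -0.012, -0.23 and 0.060. Fibroblasts thus stayed below control in every setting that gave a value, while basal keratinocytes on day 60 changed side in 6 of them, and basal keratinocytes on day 14 and suprabasal keratinocytes on day 14 in 1 each. Without the mitochondrial filter the largest shift was 0.052, that of basal keratinocytes on day 14, which left 0.0034. The cause of these changes was not tested.

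The log2 ratio of basal keratinocytes over fibroblasts in control, 1.07, was 1.09 without mitochondrial UMIs in the total, 1.06 without the mitochondrial filter and 1.10 with the stricter gate. The number of members past 1.5-fold on day 7 went from 3 to 8 in fibroblasts, from 3 to 5 in basal and from 17 to 46 in suprabasal keratinocytes when centred on the median of all genes, and to 1 in fibroblasts with at least 200 UMIs. At a fold of 2 the counts from day 7 to 60 were 1, 5, 12 and 7 in fibroblasts in place of 3, 18, 25 and 23, then 1, 5, 9 and 6 in basal keratinocytes in place of 3, 17, 22 and 12, and 1, 5, 8 and 4 in suprabasal keratinocytes in place of 17, 16, 19 and 13. Pairs of member and library that left the group numbered 13, 34 with a deviation of 0.58, and 4 with copies summed with their parent, against 16 with control as reference, 9 with at least 200 UMIs and 13 with the stricter gate. Of 318 ratios of named members under centring or the stricter gate, 145 were counted as moved and 173 as the same. None that was past 1.5-fold changed sign, but many were named for being extreme, which makes this a weak check. Smaller ratios did change sign, the lowest being -8.22 times its main value. No paired analysis was possible because each group holds 1 library. The spread between animals is unknown, and depth per cell moved the values of fibroblasts, basal keratinocytes and suprabasal keratinocytes as given above. The 85 fibroblasts on day 14 and rows under 10 CPM carry the widest counting intervals.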
